A study of Mus musculus with 6 samples.

Results

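The genes described here are 44 named genes of DNA replication and mitosis, of 21887 mouse protein-coding genes. They were chosen by name, not by their signal. The S-phase class has 28 genes, of which 20 work in replication itself (the Mcm helicase subunits Mcm2 to Mcm7, Mcm10, Pcna, Rrm1, Rrm2, Tyms, Cdc6, Cdc45, Cdt1, Gmnn, Pold1, Pole, Prim1, Fen1 and Lig1) and 8 regulate entry into S phase (E2f1, E2f2, E2f3, E2f7, E2f8, Ccne1, Ccne2 and Cdk2). The mitosis class has 16 genes: Ccna2, Ccnb1, Ccnb2, Cdk1, Plk1, Aurka, Aurkb, Bub1, Bub1b, Cdc20, Cenpe, Cenpf, Top2a, Kif11, Mki67 and Birc5. For each gene the peak of open chromatin within 1 kb of either end of its annotated span, called the gene-end peak, was taken in each library. Where several peaks lay there, the one with the highest signal value was used.

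Retinal progenitors divide many times before their daughters leave the cell cycle and become neurons. Before S phase, Cdc6 and Cdt1 load the Mcm helicase on replication origins, and Gmnn, which encodes geminin, blocks reloading. Cyclin E with Cdk2 and the E2F factors drive the start of S phase: E2f1, E2f2 and E2f3 are mostly activators, E2f7 and E2f8 repressors. In mitosis, Cdk1 with its cyclins, Plk1 and the Aurora kinases build and run the spindle. Bub1 and Bub1b belong to the checkpoint that holds back Cdc20. Promoters of S-phase genes are classically bound by E2F factors. Those of mitosis genes are bound by the DREAM complex and its relatives, through an element called the CHR. A further element, the CCAAT box, is often found with it.

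Chromatin accessibility was measured by ATAC-seq, which cuts open DNA with the transposase Tn5, in retinas of C57BL/6 mouse embryos of stage E14.5. There were 3 wild-type libraries (Atoh7 +/+) and 3 of the genotype Atoh7 SE/SE, in which both copies of the gene's shadow enhancer are mutated. A library came from both retinas of 1 animal. Atoh7 encodes a transcription factor needed for retinal ganglion cells, and a shadow enhancer is an added element that overlaps the primary one in its activity. All groups shared strain, stage and tissue, and the whole retina was used, so dividing and non-dividing cells were mixed. In such a mixture, fewer cells with an open site and less opening per cell cannot be told apart.

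The wild-type lists had 31340, 34797 and 27873 peaks and the SE/SE lists 39115, 42722 and 44242, so every SE/SE list was longer than every wild-type list. A joint list per genotype, as the authors named it, had 104991 peaks for wild type and 120772 for SE/SE. No read counts were analysed and the depth is unknown. Amplification took 17, 18 or 19 PCR cycles for wild type and 15, 16 or 16 for SE/SE, and the labels do not say which library had which number. Cycles, list length and genotype cannot be told apart. At Atoh7 itself, 2 of 8 regions had a peak in 3 wild-type and 0 SE/SE libraries. Gene-end peaks stood in all 6 libraries at 7 of 8 retinal progenitor markers, 4 of 4 neurogenic and 4 of 4 ganglion cell markers. They did so at 2 of 4 pigment epithelium, 0 of 4 endothelial and 0 of 4 blood and microglia markers, and at 2 of 4 genes of liver and muscle (Apoa1 and Ckm).

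Almost every gene had an open end in every animal. A gene-end peak was present in all 6 libraries at 43 of the 44 genes (97.7%), while 55.6% of all protein-coding genes had one. In both joint lists all 44 had a gene-end peak, against 66.7% of all genes. At Lig1 this was the peak inside the gene described below, wider there and so within 1 kb of the end. At Cdk2 the joint lists had their highest peak at the other end of the gene than the libraries. The 16 mitosis genes, the 8 G1/S regulators and 19 of the 20 replication genes made up the 43. Of the other genes of the same pathways, taken from a list of 73 of which 72 could be matched by symbol, 68 had a gene-end peak in all 6 libraries. The 4 without one in any library were the origin recognition subunits Orc1 and Orc4, the clamp loader subunit Rfc1 and Pttg1, which encodes securin.

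The exception was Lig1 (gene ID 16881, chromosome 7, 13277175 to 13311426 in GRCm38), the ligase that joins Okazaki fragments. It had a gene-end peak in 0 of 6 libraries by the outer end of its span. A peak nevertheless lay inside the gene in all 6 libraries, within 13278226 to 13279544, and its nearer edge was 1051 bp from that outer end. The percentile of a peak is the share of peaks in its own list with a signal value at or below its own. The Lig1 peak stood at percentiles 96.0, 95.9 and 94.4 in the wild-type and 95.9, 96.7 and 95.9 in the SE/SE libraries. It was thus among the highest peaks of each library, and the genotypes overlapped. The peak covered 2 further starts that RefSeq annotates for Lig1, at 13278826 and 13279265. The windows of 250 bases before to 50 after the outer start and the first inner start are shown because they are the uncovered and the covered promoter of the same gene. Sequences are from RefSeq (GRCm38.p6), read 5′ to 3′ along the gene, with E2F motif matches in capitals.
Lig1 outer start, chr7:13276925-13277224, plus strand: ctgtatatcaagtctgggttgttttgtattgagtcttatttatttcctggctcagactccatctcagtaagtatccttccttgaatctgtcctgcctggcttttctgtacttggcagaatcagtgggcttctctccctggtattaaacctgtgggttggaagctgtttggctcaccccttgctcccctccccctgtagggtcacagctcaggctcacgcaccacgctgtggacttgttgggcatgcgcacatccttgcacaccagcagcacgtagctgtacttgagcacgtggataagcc
Lig1 inner start, chr7:13278576-13278875, plus strand: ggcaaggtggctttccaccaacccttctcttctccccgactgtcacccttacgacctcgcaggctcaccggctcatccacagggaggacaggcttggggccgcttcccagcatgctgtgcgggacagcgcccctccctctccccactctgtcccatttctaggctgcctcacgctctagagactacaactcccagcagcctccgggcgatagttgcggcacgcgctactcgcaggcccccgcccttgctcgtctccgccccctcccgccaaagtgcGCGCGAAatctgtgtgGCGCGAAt
The window of the outer start had a GC content of 51.3% with 5 CpG sites, and no match to an E2F motif. The window of the inner start had a GC content of 65% with 23 CpG sites, and 2 matches.

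A RefSeq start site with its strand was available for 38 of the 44 genes, all but Pole, Gmnn, Aurkb, Ccne2, Ccna2 and Mcm4. In 35 of the 38 a peak lay over an annotated start in all 6 libraries, and in 38 of 38 a peak lay within 1 kb of one. The peak summit, taken as the median over libraries, was within 250 bp of the first annotated start in 31 of 37 genes. The median summit was at -23 bp in 23 S-phase genes and at -55.5 bp in 14 mitosis genes, where negative values lie upstream. The 3 genes without a peak over a start in every library were Cdc45, Cdc6 and E2f2. At Cdc6, whose product loads the helicase, the downstream edge of the peak was at -65, -263 and -64 bp from the start in the wild-type libraries and at -64, -50 and -47 bp in the SE/SE libraries. At Cdc6 the highest peak of the joint SE/SE list within 1 kb of a gene end was another one, 16663 to 18518 bp downstream of the start; that list also had a peak of 885 bp over the start. At E2f2 a peak lay over the start in 5 of 6 libraries, all but wild type 3.

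Promoter sequences of the S-phase genes with the highest and the lowest percentiles among those in the RefSeq table show what the open starts contain. Capitals mark matches to E2F motifs, CHR and CCAAT boxes on either strand, and each window runs from 250 bases before to 50 after the start.
E2f7, chr10:110745189-110745488, plus strand: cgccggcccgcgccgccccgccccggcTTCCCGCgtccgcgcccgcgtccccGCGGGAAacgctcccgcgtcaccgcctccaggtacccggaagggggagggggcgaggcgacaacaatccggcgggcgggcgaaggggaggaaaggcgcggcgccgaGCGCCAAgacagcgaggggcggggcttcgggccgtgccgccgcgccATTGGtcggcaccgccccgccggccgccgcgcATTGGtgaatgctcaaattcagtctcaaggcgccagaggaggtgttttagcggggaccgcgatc
E2f3, chr13:29986014-29986313, minus strand: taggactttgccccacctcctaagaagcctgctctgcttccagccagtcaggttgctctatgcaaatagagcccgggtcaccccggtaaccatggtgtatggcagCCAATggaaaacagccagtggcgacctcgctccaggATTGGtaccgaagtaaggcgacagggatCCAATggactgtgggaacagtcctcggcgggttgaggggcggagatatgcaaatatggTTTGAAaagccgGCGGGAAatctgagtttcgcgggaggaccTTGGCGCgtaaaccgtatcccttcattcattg
Prim1, chr10:128014965-128015264, plus strand: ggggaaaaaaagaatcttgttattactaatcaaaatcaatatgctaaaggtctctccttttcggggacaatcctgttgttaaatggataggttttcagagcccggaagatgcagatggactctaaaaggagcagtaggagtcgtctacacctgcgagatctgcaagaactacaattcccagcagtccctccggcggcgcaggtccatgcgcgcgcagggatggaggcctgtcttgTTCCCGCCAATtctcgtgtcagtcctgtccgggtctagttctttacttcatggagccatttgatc
E2f2, chr4:136172024-136172323, plus strand: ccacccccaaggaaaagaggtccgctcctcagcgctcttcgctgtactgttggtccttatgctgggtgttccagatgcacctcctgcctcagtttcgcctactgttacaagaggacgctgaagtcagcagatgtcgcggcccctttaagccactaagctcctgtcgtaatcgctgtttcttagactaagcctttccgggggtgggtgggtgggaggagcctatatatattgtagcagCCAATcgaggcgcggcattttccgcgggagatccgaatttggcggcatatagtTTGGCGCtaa
E2f7 and E2f3 were the highest of the S-phase genes with a RefSeq window, and Prim1, the primase catalytic subunit, and E2f2 were the lowest. E2f7 had E2F matches at -223, -198 and -92 bp from the start. E2f3 had E2F matches at -11 and 19 bp, and Prim1 had one at -15 bp that overlaps its CCAAT box. E2f2 had an E2F match at 41 bp, but the peak taken for E2f2 began 300 to 332 bp downstream of the start and so did not overlap its window.

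The mitosis genes are shown in the same way: Cenpf and Mki67 had the highest percentiles among those with a window, and Plk1 and Bub1 the lowest.
Cenpf, chr1:189688037-189688336, minus strand: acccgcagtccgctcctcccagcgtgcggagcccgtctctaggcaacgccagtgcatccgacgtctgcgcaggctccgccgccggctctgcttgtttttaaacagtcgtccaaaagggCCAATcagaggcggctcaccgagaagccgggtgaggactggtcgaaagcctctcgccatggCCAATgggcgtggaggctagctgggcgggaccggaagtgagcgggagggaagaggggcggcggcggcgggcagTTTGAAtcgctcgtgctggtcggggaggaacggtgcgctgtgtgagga
Mki67, chr7:135716330-135716629, minus strand: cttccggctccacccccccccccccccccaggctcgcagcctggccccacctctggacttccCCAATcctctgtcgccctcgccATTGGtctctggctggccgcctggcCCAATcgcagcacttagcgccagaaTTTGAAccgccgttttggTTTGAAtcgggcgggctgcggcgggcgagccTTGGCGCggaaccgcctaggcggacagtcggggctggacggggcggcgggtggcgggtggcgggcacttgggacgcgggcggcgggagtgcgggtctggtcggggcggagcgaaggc
Plk1, chr7:122159185-122159484, plus strand: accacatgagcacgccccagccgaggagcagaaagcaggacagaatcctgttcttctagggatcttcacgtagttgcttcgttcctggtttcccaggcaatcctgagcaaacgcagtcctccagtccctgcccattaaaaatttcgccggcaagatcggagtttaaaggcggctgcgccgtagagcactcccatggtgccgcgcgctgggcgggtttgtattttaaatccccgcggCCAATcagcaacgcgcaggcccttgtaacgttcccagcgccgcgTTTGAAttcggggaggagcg
Bub1, chr2:127831810-127832109, minus strand: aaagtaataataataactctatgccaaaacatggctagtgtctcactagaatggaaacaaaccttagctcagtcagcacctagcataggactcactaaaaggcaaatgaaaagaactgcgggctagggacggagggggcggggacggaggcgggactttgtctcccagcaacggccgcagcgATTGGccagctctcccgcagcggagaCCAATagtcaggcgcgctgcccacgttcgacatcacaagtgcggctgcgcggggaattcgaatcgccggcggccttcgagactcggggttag
Cenpf, a kinetochore protein gene, had a CHR match at 3 bp and CCAAT boxes at -132 and -71 bp. Mki67, the gene of the proliferation marker Ki-67, had CHR matches at -116 and -98 bp and an E2F match at -67 bp. Plk1 had a CHR match at 31 bp, and Bub1 had 2 CCAAT boxes and no CHR match in this window.

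The classes differed in motifs. The E2F motif was searched as TTCCCGC or as TTGGCGC or as TTCGCGC or as TTGCCGC. The CHR was searched as TTTGAA, the CCAAT box by the letters of its name and the GC box as GGGCGG. Each was searched on both strands, and matches of different motifs may overlap. Only the first RefSeq window of each gene was counted, which for Lig1 is the uncovered outer start. Lig1 and Fen1 had no E2F match in that window but had one in a further window. An E2F match was found in 15 of 24 S-phase windows (62.5%) and in 3 of 14 mitosis windows (21.4%), beside 12.2% of all 17492 protein-coding windows. A CHR match was found in 10 of 14 mitosis windows (71.4%) and 5 of 24 S-phase windows (20.8%), beside 16.5% of all windows. A CCAAT box was found in 13 of 14 mitosis and 16 of 24 S-phase windows, beside 39.0% of all. All 10 mitosis windows with a CHR also held a CCAAT box, a combination found in 6.68% of all windows. The other pathway genes had shares of the same order: E2F in 55.2% of 29 replication windows and 17.2% of 29 mitosis windows, CHR in 10.3% and 65.5%. A match says only that the letters are in the window.

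**Figure D1:**
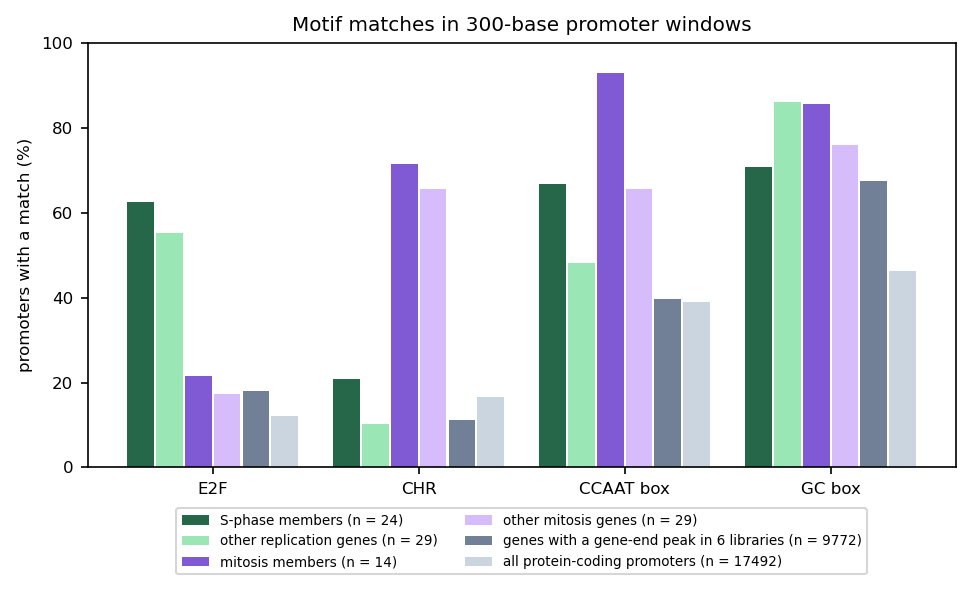
Share of 300-base promoter windows (percent, y axis) with at least 1 match to each motif (x axis), for the S-phase and mitosis genes, the other genes of both pathways, genes with a gene-end peak in all 6 libraries and all protein-coding windows. E2F matches were found in 62.5% of S-phase windows and CHR matches in 71.4% of mitosis windows, while 12.2% and 16.5% of all windows had them. Only the first RefSeq window of each gene was counted.

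Among S-phase genes the regulators of S-phase entry had the highest peaks. Ccne2, which encodes a cyclin E (chromosome 4, 11190433 to 11204779), had percentiles of 99.2, 99.5 and 99.1 in wild type and 99.6, 99.7 and 99.7 in SE/SE. Its peak was 1772, 2068 and 1628 bp wide in wild type and 2099, 2136 and 2120 bp in SE/SE. Ccne2 was thus near the top of every list. E2f7 (chromosome 10, 110745439 to 110787384) had percentiles of 97.7, 98.3 and 97.7 in wild type and 98.4, 98.5 and 98.4 in SE/SE. E2f3 (chromosome 13, 29906575 to 29986064) had 95.7, 96.5 and 95.7, then 97.9, 99.8 and 99.8. In all 3 genes every SE/SE percentile was above every wild-type one. Percentiles depend on list length. Over all genes with a gene-end peak in all 6 libraries the median percentile was 78.4 in wild type and 83.9 in SE/SE. The share of all genes whose percentiles separate is not given, so such separations, here and below, are no result about these genes. The rank given further on is taken over a fixed set of genes, and by it the genotypes overlapped at E2f7. The median percentile over the 8 regulators was between 94.3 and 96.0 in the 6 libraries, and over the 19 replication genes it was between 80.2 and 85.2. Among replication genes, the helicase subunit genes Mcm4 and Mcm7 had means over the 6 libraries of 97.1 and 96.9, and Pcna, the sliding clamp, 96.1. Prkdc has an end within 1 kb of an end of Mcm4, Cops6 and Ap4m1 of Mcm7, and Tmem230 and Cds2 of Pcna. Whether a neighbour lies at the end with the peak was not checked, so these peaks may not be those of 1 gene only.

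The lowest S-phase peaks were narrow. E2f2 (chromosome 4, 136172274 to 136196057) had percentiles of 41.1, 41.1 and 22.2 in wild type and 45.1, 49.1 and 56.7 in SE/SE. Prim1 (chromosome 10, 128015215 to 128030030) had 43.3, 33.4 and 21.5, then 55.0, 56.9 and 56.4. Tyms, the thymidylate synthase gene (chromosome 5, 30038546 to 30073645), had 46.2, 54.8 and 36.3, then 65.1, 62.8 and 66.1. Wild type 3, the shortest list, had the lowest value at all 3 genes, and no wild-type value reached the SE/SE values. By the rank over a fixed set of genes the genotypes overlapped at all 3.

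Mitosis genes covered a smaller range. Ccna2, which encodes cyclin A (chromosome 3, 36564865 to 36573038), was the highest, with percentiles of 93.2, 93.4 and 93.5 in wild type and 94.6, 94.8 and 94.5 in SE/SE. Exosc9 and Bbs7 each have an end within 1 kb of 1 of its ends, not always the end with the peak, and cyclin A acts in S phase as well as in mitosis. Cenpf (chromosome 1, 189640606 to 189688107) had 88.6, 88.2 and 85.5, then 88.4, 88.1 and 88.6. Mki67 (chromosome 7, 135689784 to 135716450) had 86.7, 86.4 and 85.0, then 87.3, 88.1 and 89.0. The percentiles of the genotypes overlapped at Cenpf and did not at Ccna2 and Mki67. By the rank over a fixed set of genes they overlapped at Ccna2. Mki67 was lower in SE/SE by that rank, with means of 66.0 in wild type and 62.1 in SE/SE.

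At the other end were 2 kinases of the spindle and a checkpoint kinase. Aurkb, the kinase of the chromosomal passenger complex (chromosome 11, 69045624 to 69051664), had percentiles of 61.9, 57.5 and 46.4 in wild type and 63.0, 65.0 and 68.9 in SE/SE. Plk1 (chromosome 7, 122159435 to 122169884) had 57.6, 62.4 and 50.4, then 61.0, 68.3 and 66.4. Bub1 (chromosome 2, 127800197 to 127831859) had 64.3, 61.8 and 55.5, then 63.0, 69.0 and 66.8. The genotypes overlapped at Plk1 and Bub1, and wild type 3 was again the lowest. At Aurkb the percentiles did not overlap, but the ranks over a fixed set of genes did.

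**Figure D2:**
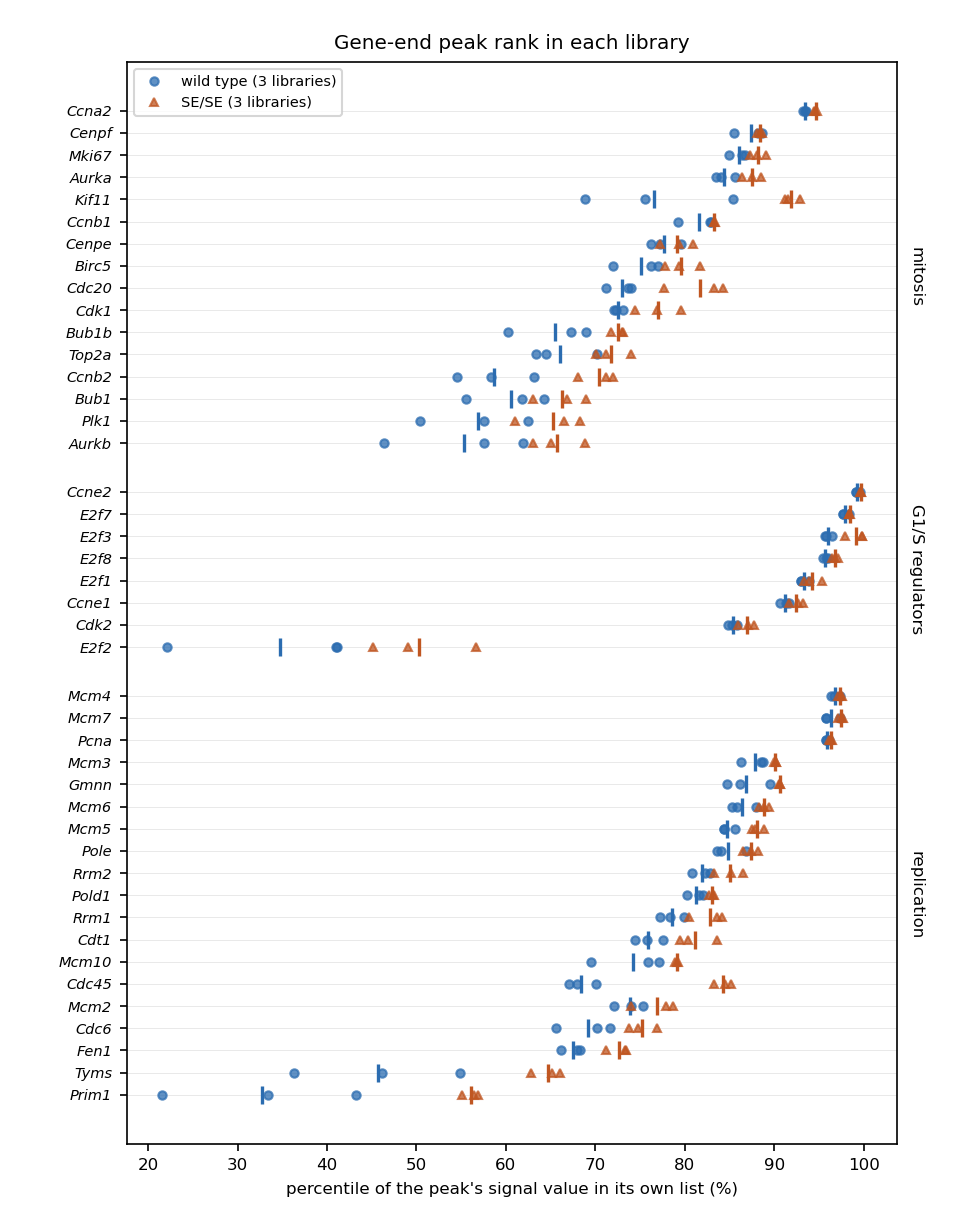
Percentile of each gene-end peak's signal value in its own list (x axis, percent) for the 43 genes with a peak in all 6 libraries (y axis), sorted within replication genes, G1/S regulators and mitosis genes. Circles are the 3 wild-type and triangles the 3 SE/SE libraries, vertical ticks are genotype means; the means over all libraries run from 42.5 (E2f2) to 99.5 (Ccne2).

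S-phase genes had higher and wider peaks than mitosis genes inside every library. The median percentile of the 27 S-phase genes was 84.9 ± 0.85 (SD, n = 3) in wild type and 87.4 ± 0.36 in SE/SE. That of the 16 mitosis genes was 73.8 ± 1.86 in wild type, and in SE/SE it was 79.4 ± 1.70. The difference of S-phase minus mitosis medians was 9.54 ± 2.28 points over the 6 libraries, between 6.52 and 12.7, and above 0 in 6 of 6. For width it was 152 ± 27.0 bp, also above 0 in 6 of 6 libraries. Signal values were not divided by width, so percentile and width are not independent traits. Without the 8 G1/S regulators the differences were 5.87 points and 97.1 bp. With the other pathway genes the differences had the opposite sign, -0.968 ± 1.08 points and -96.7 ± 45.6 bp, although the percentile difference was below its SD. In those lists the mitosis genes had the wider median in 6 of 6 libraries. All 6 libraries measure the same genes, so their number says nothing about other genes of a class.

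**Figure D3:**
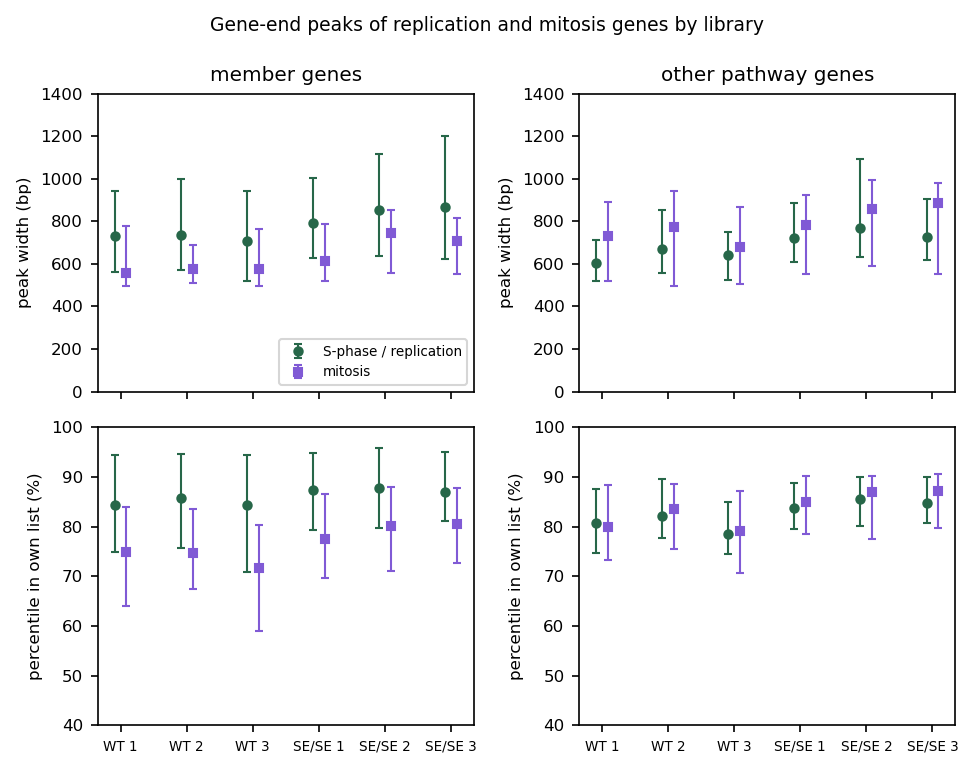
Median width (upper panels, bp) and median percentile (lower panels, percent, axis from 40) of gene-end peaks in each of the 6 libraries (x axis), with bars from the lower to the upper quartile over genes. On the left, the S-phase genes lie above the mitosis genes in every library; on the right, the other replication genes lie below the other mitosis genes in width in every library.

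Peaks of these genes were wider in SE/SE than in wild type about as often as those of other genes. In 26 of the 43 genes (60.5%) every SE/SE width was above every wild-type width, beside 59.5% of the 12174 genes with a gene-end peak in all 6 libraries. In 0 of 43 every SE/SE width was below every wild-type one, beside 0.0657% of all. The remaining 17 overlapped. With 3 against 3 libraries the exact two-sided permutation test over 20 assignments cannot give a p under 0.1, and such a separation has that p. The mean width was larger in SE/SE in 43 of 43 genes, beside 12010 of the 12174 genes. The median width was 678 ± 5.13 bp (SD, n = 3) in wild type and 772 ± 49.7 bp in SE/SE, a ratio of 1.14, and over all 12174 genes it was 670 ± 40.9 and 799.7 ± 36.1 bp, a ratio of 1.19. A share near that of all genes is no result about these genes, and the longer SE/SE lists go with it.

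The separation was found in 21 of 27 S-phase genes (77.8%), namely 14 of 19 replication genes and 7 of 8 G1/S regulators, and in 5 of 16 mitosis genes (31.3%). The mitosis genes were Ccnb1, Bub1, Cdc20, Top2a and Kif11. The other pathway genes had the opposite order, with 14 of 33 replication genes (42.4%) and 21 of 35 mitosis genes (60%), and no test of the class difference was made. A pair of libraries decided much of this. Among the 17 genes that overlapped, the narrowest SE/SE width was that of SE/SE 1 in 15, and the widest wild-type width was that of wild type 2 in 11. Without SE/SE 1 the widths separated in 25 of 27 S-phase and 12 of 16 mitosis genes, beside 81.0% of all genes. Without wild type 2 they separated in 23 of 27 and 11 of 16, beside 84.7% of all. Of the other pathway genes, 22 of 33 replication and 29 of 35 mitosis genes separated without SE/SE 1. Without wild type 2, 28 of 33 (84.8%) and 27 of 35 (77.1%) did, so the order of those lists turned when that library was left out.

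**Figure D4:**
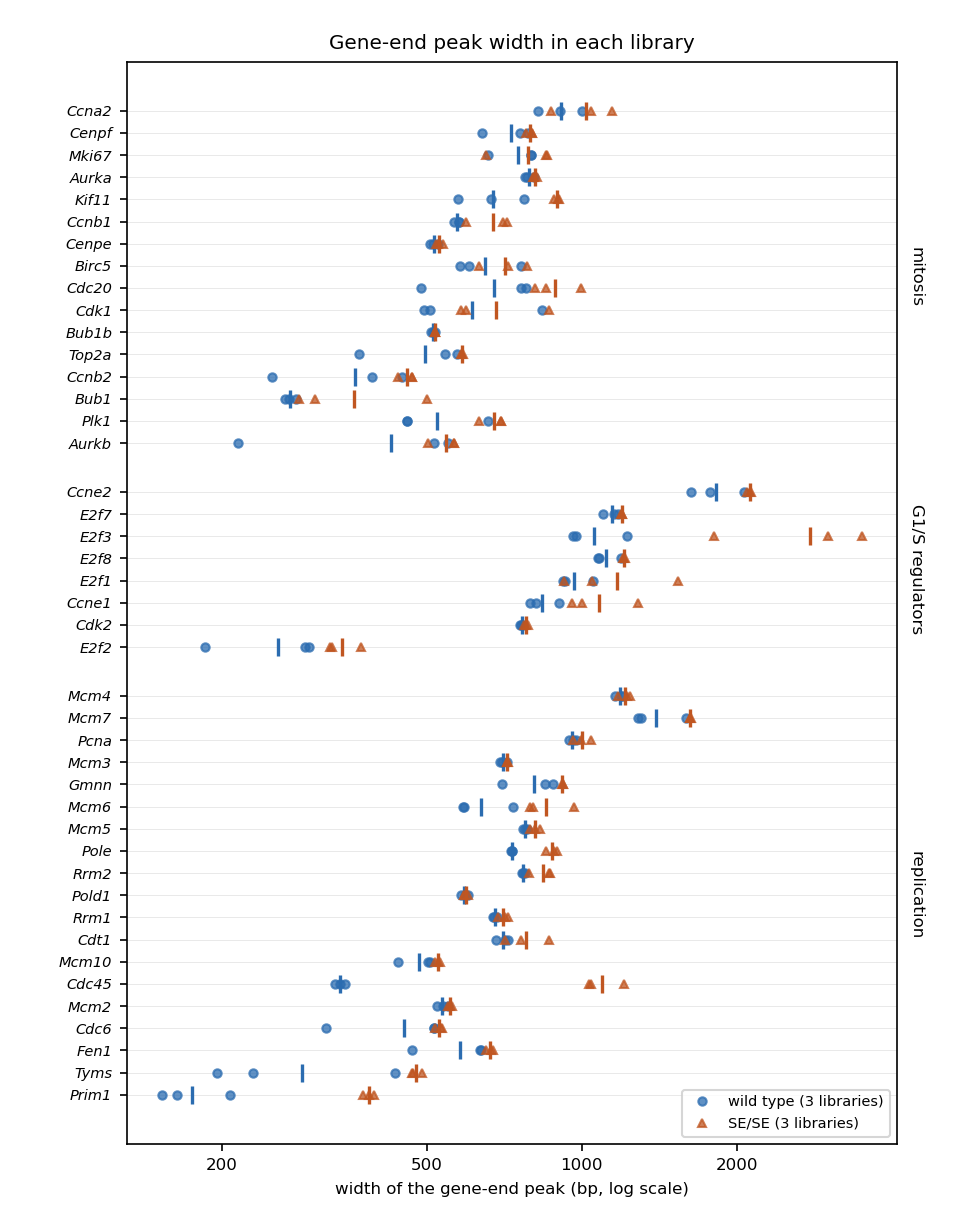
Width of each gene-end peak (x axis, bp, log scale) for the 43 genes with a peak in all 6 libraries (y axis, in the order of their percentiles within replication genes, G1/S regulators and mitosis genes). Circles are wild-type and triangles SE/SE libraries, vertical ticks are genotype means; Cdc45, E2f3 and Prim1 have the largest ratios of SE/SE to wild-type means, 3.22, 2.63 and 2.21.

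At Cdc45 and E2f3, which had the largest ratios of mean width, peaks that were separate in wild type were 1 peak in SE/SE libraries. Cdc45, a helicase cofactor (chromosome 16, 18780447 to 18811972), had a peak of 339, 347 and 332 bp in wild type, with a further peak within 1 kb in each library, and 1 peak of 1043, 1033 and 1206 bp in SE/SE. The wild-type peak began 100, 94 and 102 bp downstream of the start, and the SE/SE peak reached over it. Summed over all peaks within 1 kb, the Cdc45 widths were 908, 936 and 735 bp in wild type and 1043, 1033 and 1206 bp in SE/SE, so the groups still did not overlap but lay closer. Ufd1 has an end within 1 kb of an end of Cdc45.

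E2f3 was 975, 1227 and 962 bp wide in wild type and 1805, 3005 and 3502 bp in SE/SE. Its joint-list peak was 3596 bp in wild type and 4050 bp in SE/SE. A second annotated start of E2f3, at 29984391, had a peak of its own of 1019, 998 and 941 bp in wild type. In SE/SE 2 and SE/SE 3 the 2 starts lay under 1 peak.

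Prim1 went from 208, 164 and 153 bp in wild type to 386, 396 and 377 bp in SE/SE, and the added width lay mostly downstream, where the peak ended 59, 37 and 37 bp from the start and then 234, 244 and 227 bp. Tyms was 230, 435 and 196 bp, then 490, 469 and 470 bp, with wild type 2 close to the SE/SE values. Mcm6 was 592, 736 and 589 bp, then 793, 966 and 803 bp. Kif11, a spindle motor (chromosome 19, 37376382 to 37421863), was 774, 667 and 576 bp, then 901, 884 and 904 bp. In these 4 genes the 3 SE/SE values lay above the 3 wild-type values.

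**Figure D5:**
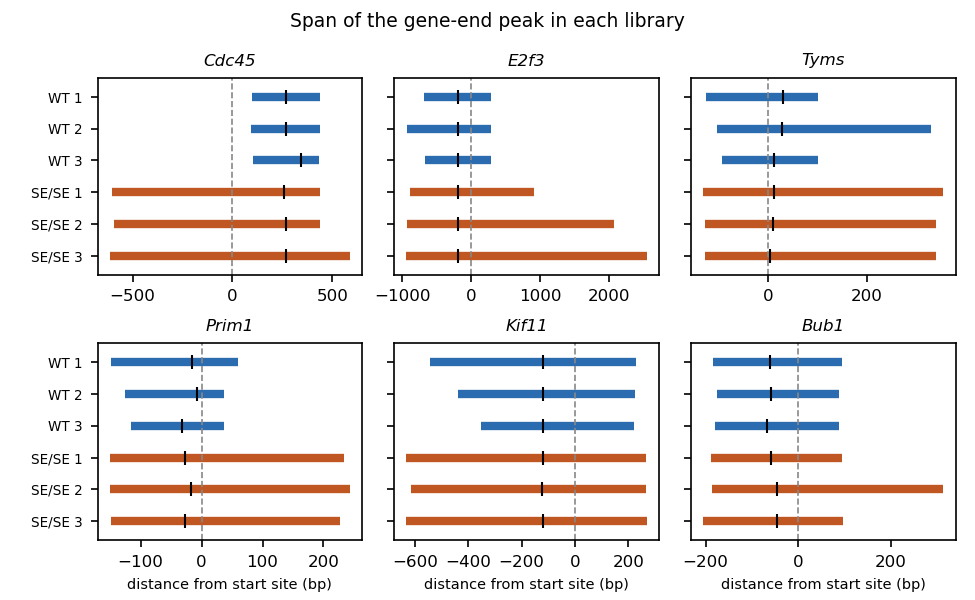
Extent of the gene-end peak in each library (bars; wild type above, SE/SE below) relative to the first RefSeq start (dashed line; x axis, bp, positive values downstream), with the peak summit as a black tick, for 5 of the 6 genes with the largest ratios of width and for Bub1. The Cdc45 peak begins 94 to 102 bp downstream of the start in wild type and covers the start in SE/SE, while the summits of Kif11 stay at -121 or -122 bp in all 6 libraries.

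A rank of the signal value over a fixed set of genes was taken among the 12174 genes with a gene-end peak in all 6 libraries, from 0 to 100. The number of peaks in a list does not enter this rank directly. Signal values were not divided by width, so rank and width are not separate measures, least of all where peaks were joined, as at Cdc45 and E2f3. In 5 of 43 genes (11.6%) every SE/SE rank was above every wild-type rank, beside 12.3% of all genes. These were Kif11, Cdc45, E2f3, Ccnb2 and Ccne2. Kif11 had ranks of 64.5, 39.6 and 38.7 in wild type and 73.8, 70.6 and 74.9 in SE/SE, a mean difference of 25.5. Cdc45 had 30.6, 29.8 and 37.4, then 54.6, 47.2 and 51.5, a difference of 18.5. The wild-type libraries disagreed at Kif11, where wild type 1 lay nearer to the SE/SE libraries than to the other wild-type ones.

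Lower ranks in SE/SE were found in 13 of 43 genes (30.2%), beside 21.2% of all genes. They comprised 4 of 27 S-phase genes (14.8%; Mcm2, Pcna, Fen1 and Cdk2) and 9 of 16 mitosis genes (56.3%; Ccnb1, Plk1, Bub1, Bub1b, Cenpe, Cenpf, Top2a, Mki67 and Birc5). Cenpe, a kinetochore motor, had the largest fall, from ranks of 47.5, 47.6 and 50.4 in wild type to 37.7, 41.3 and 36.6 in SE/SE. Ccnb1, which encodes cyclin B, had 59.1, 54.6 and 55.9, then 51.2, 47.2 and 46.5. Neither gene had overlapping groups. With each library left out in turn, 9 to 11 mitosis genes had lower ranks, and 4 to 11 S-phase genes did, with 11 without wild type 2 and 9 without SE/SE 1. Leaving a library out can raise these counts but cannot lower them. Without wild type 2 the total was 21 of 43 genes, beside 31.7% of all. Of the other pathway genes, 14 of 33 replication genes (42.4%) and 11 of 35 mitosis genes (31.4%) had lower ranks, so that there the replication genes had the larger share. The median rank difference of SE/SE minus wild type was -2.47 in the 43 genes and -0.756 over all genes. These are differences of rank among peaks and not of reads.

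Open regions away from the gene ends were then counted. Peaks of the 6 libraries that shared 1 bp or more were merged into 46780 regions, and a region was assigned to a gene if it lay inside it or was nearest to one of its ends within 100 kb. The 44 genes had 40 regions other than those at their ends, 9 inside and 31 outside, or 0.909 per gene. The regions inside include the Lig1 peak described above, which covers 2 annotated starts of that gene. The mean was 1.66 for all genes with a gene-end peak in all 6 libraries and 1.35 for all protein-coding genes. No other region was found for 28 of the 44 genes (63.6%), beside 48.6% of genes with a gene-end peak in all 6 libraries. The 44 genes were also shorter, with a median span of 15.9 kb against 23.9 kb. The other replication genes had 1.17 regions per gene and the other mitosis genes 0.694, and 66.7% and 63.9% of them had none. Over the merged regions, S-phase genes had 0.893 and mitosis genes 0.938 per gene. Counted inside each library instead, S-phase genes had 0.0685 ± 0.0881 more regions with a peak per gene (mean and SD over 6 libraries), a difference smaller than its SD. Within S phase the 20 replication genes had 0.4 merged regions and the 8 regulators 2.13 per gene.

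Cdk1, the mitotic kinase (chromosome 10, 69335146 to 69352912), had the most, 6 regions, all outside the gene and between 13631 and 46999 bp from its ends, of which 3 had a peak in all 6 libraries. Rrm2, Ccne1, E2f8 and Mki67 had 4 each. Ccne1 (chromosome 7, 38097984 to 38107490) had 3 in all 6 libraries, the highest at 38084641 to 38085445 with a percentile of 87.4 in wild type 1. The neighbours of these genes can use such regions too, and assignment by distance does not tie a region to a gene.

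Of the 40 regions, 15 (37.5%) had a peak in all 6 libraries, beside 52.1% of all regions. All regions here are the 46780 merged regions with gene ends included, whereas the 40 leave gene ends out. The ends of these genes were more constant: 44 of their 50 gene-end regions were open in every library, a share not given for all genes. Shares of the 40 and of all regions are therefore not like for like. A peak in all 3 SE/SE and no wild-type library was found at 5 of the 40 (12.5%), beside 8.23% of all regions, and the reverse at 0, beside 0.0321%. The 5 were 2869 bp beyond Rrm2, the small subunit of ribonucleotide reductase (chromosome 12, 24717015 to 24717159), on both sides of E2f7 (chromosome 10, 110733444 to 110733617 and 110794621 to 110794797), inside Bub1b (chromosome 2, 118633475 to 118633775) and 42719 bp from Mki67 (chromosome 7, 135759169 to 135759455). All 5 had a peak in both joint lists, wild type included. The Rrm2 region had percentiles of 15.2, 13.7 and 14.2 in the SE/SE libraries, and the E2f7 regions 12.5, 30.9 and 12.3, and 14.8, 21.5 and 11.3. The Bub1b region had 8.21, 32.2 and 37.3, and the Mki67 region 18.0, 26.8 and 41.4. All these values were below the median of their lists. With all lists cut to the length of the shortest, 0 of 25 remaining regions had this pattern, and without wild type 2 there were 11. Of the 40 regions, a wild-type library had a peak at 21.3 ± 6.11 and an SE/SE library at 35.7 ± 1.53 (mean and SD, n = 3). The same count over regions of all genes is not given and every SE/SE list was longer, so this is no result about these genes.

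Neighbouring gene ends can limit what a peak says of 1 gene. Another protein-coding gene had an end within 1 kb of either end at 13 of the 44 genes, 9 of S phase and 4 of mitosis. This count does not ask whether the neighbour is at the end with the peak, so fewer peaks may be shared. Besides those named above they were Pold1 (Spib and Nr1h2), Pole (Pxmp2), Fen1 (Tmem258), Lig1 (Pla2g4c), E2f1 (Necab3), Plk1 (Ern2), Aurka (Fam210b and Cstf1) and Cdc20 (Elovl1).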

How the data were processed

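The analysed files were 8 narrowPeak lists from ATAC-seq, 1 for each of 6 libraries (3 per genotype) and 2 joint genotype lists. Genrich 0.5, BWA, bedtools 2.27.0, cutadapt and limma, and the build GRCm38 (mm10), are listed in the submitters' processing notes without their role or order. Trimming, the Tn5 shift and duplicate removal are not given in the sources used here. The deposited signal value of a peak (lowest 20 in every list), the deposited score, which is tied to signal over width, and the deposited −log10 p-value are the authors' own; the signal value was used only to rank peaks inside a list. No read counts or depths were analysed here.

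Gene spans, start sites and promoter windows came from RefSeq tables for GRCm38.p6; the gene table has no strand. Peak widths, percentiles, ranks and merged regions were computed with Python 3.11.15, numpy 2.4.6, pandas 2.3.3 and scipy 1.17.1, and tested on simulated data. The genotype comparison asked, for every gene with a gene-end peak in 6 libraries, whether the groups did not overlap. It was read beside the share over all such genes. The exact two-sided permutation over 20 assignments was computed only for the genes described here. Class comparisons are values per library without a test. The members and lists were chosen with earlier results of these data known. Named genes were those without a gene-end peak, the 6 with the largest width ratio among separated genes, the 3 highest and 3 lowest per class by percentile, the 3 with most other regions (ties included) and those with genotype-specific regions; the genes named for ranks and the lists of separated genes were added after their values were seen.

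The libraries carry the same replicate numbers in both genotypes, but the labels do not say that these pair animals. Correlations over genes were 0.0187, 0.0547 and -0.0578 for same-numbered libraries, and between -0.0961 and 0.0817 for the others. These cannot be correlations of raw widths or percentiles, since a gene high in 1 library was mostly high in the others. They do not show whether animals were paired. Alternatives covered the gene-end distance, list length, ranking measure, class membership, region definition and each library left out.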

Additional observations from a re-analysis of the deposited data

How the results depend on the processing

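Of 121 alternative values of the main results, 105 stayed within the limits set for the same result (direction, and a shift under 1 SD or a count within 1.5 times). Of 335 alternative values of single separated genes, 334 kept the separation, though not always its size, and Cdk2 lost it with peaks within 2 kb of a gene end. The 335 include the values with a library left out. Leaving a library out cannot undo a separation, so those values had to keep it and are no check of it. The S-phase minus mitosis difference of median width was 190 bp with peaks within 2 kb, 118 bp at the end with the start site, 97.1 bp without the G1/S regulators and 190 bp for summed widths. For percentiles it was 12.2 with lists of equal length, 5.87 without the regulators, 6.92 by −log10 p and 21.2 as a rank among common genes. With the other pathway genes it turned to -96.7 bp and -0.968 points. Summed widths, the common rank and the other pathway genes were chosen after seeing the data. The class difference in other regions per gene, taken as the mean of the counts inside each library, was 0.0685 and smaller than its SD, and was -0.321 without the regulators; over merged regions S-phase genes had fewer with the regulators included. Other regions numbered 9 inside genes only and 25 with lists of equal length, of which 1 and 0 were SE/SE-specific (a peak in every SE/SE and in no wild-type library). The cause of these shifts was not tested, beyond the fewer regions and genes that some settings leave.

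With each library left out in turn, the S-phase minus mitosis differences ranged from 147 to 161 bp, from 8.90 to 10.1 points and, as means over libraries, from 0.0393 to 0.123 regions per gene. Genes with a gene-end peak in every library stayed at 43, and the genotype difference of median width ranged from 79.2 to 123 bp. Separated genes ranged from 26 to 37 wider, beside 61.4% to 84.7% of all genes, and 0 to 0 narrower. Fewer libraries cannot lower the count of separated genes, so its lower limit of 26 was fixed beforehand. Other regions ranged from 38 to 40 and SE/SE-specific ones from 5 to 11. With the replicate block, 35 genes were wider and 0 narrower in every same-numbered pair, and the difference of median width was 94 bp, as without it. The share over all genes was not counted under this rule, so the 35 is no result about these genes. No label says that the numbers pair the samples. Unknown depth limits all presence and width values.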
